A study of Drosophila melanogaster with 6 samples.

Results

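Among genes that carry only a CG number, 27 were close to silent in the growing eye-antennal disc of Drosophila melanogaster and present in every library of the disc that had stopped growing. A CG number is the label given when the fly genome was annotated to a predicted gene that had no name. The 27 genes were taken from the 16727 genes of the count table, of which 7456 carried a CG number and lay outside 1 cluster (CG13040 to CG13069, and CG34247) that was left out. CPM, a count scaled by the size of its library, was computed from the column totals, and a gene was taken when its mean over the day 5 libraries was below 1 CPM and each day 11 library held at least 3 CPM. The difference between the days therefore chose these genes. Their levels and fold changes are given as a description, with no test.

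The eye-antennal imaginal disc is the larval epithelium from which the eye, antenna and head capsule of the adult fly form. In all 6 libraries the larvae had the genotype y w; +/+; +/+ and were kept at 25 °C on food made with the YPH erg2∆::TRP1 yeast strain, which prevents pupation because the yeast does not make the precursors of the hormone that starts it. The discs came from larvae of day 5 after egg laying, when they were growing (3 libraries), or of day 11, after growth was complete (3 libraries). Each library pooled at least 30 discs and was made from polyadenylated RNA with a 3′ tag kit, which gives tags near the 3′ end of a transcript rather than along its length. Larvae of day 11 were also older and had fed longer on this medium, and these differences and the end of growth cannot be told apart.

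Library totals were 6542782 to 7950251 counts for day 5, and 7670180 to 9049513 counts for day 11. At these depths 3 counts stand for 0.332 to 0.459 CPM, a floor that covers counting error only. The disc genes ey, so, eya, dac, Dll and hth were present in all 6 libraries. Levels of ey, eya and dac were lower at day 11, while those of so, Dll and hth overlapped between the days. For ey the level was 31.0 to 33.7 CPM at day 5 and 12.1 to 20.3 CPM at day 11, for eya 51.2 to 64.7 and 15.2 to 25.9 CPM, and for dac 70.02 to 85.4 and 6.91 to 19.7 CPM. For so it was 47.75 to 82.1 and 40.8 to 53.75 CPM, for Dll 86.8 to 98.3 and 37.6 to 105.1 CPM, and for hth 1693 to 1842 and 1507 to 1897 CPM. At day 11, 1533 of 8010 genes tested were higher and 1432 lower (edgeR quasi-likelihood test, adjusted p below 0.05), which is 19.1% and 17.9%. Scaling by column totals alone gave 864 higher and 2207 lower genes. The abundant non-coding RNAs CR40469 and CR34335 together took 14.5% to 19.0% of the counts at day 5 and 26.3% to 40.8% at day 11. All levels below are CPM after TMM scaling, which allows for such differences in composition, and each is a level per transcript tag, not divided by length. In bulk tissue, fewer cells of a type and less RNA per cell cannot be told apart.

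All 27 genes passed the filter on low counts, which they could do through their day 11 values alone. edgeR called 26 of them higher at day 11 against 19.1% of all genes tested. The rule used this contrast, so nothing is read from that count. The rule also fixes that every day 11 library lies above every day 5 library, as it did in 25.6% of all genes tested. Of the CG-numbered genes with a day 5 mean below 1 CPM, which numbered 4138, the 27 genes are 0.652%. Among genes with another kind of symbol 39 of 4453 lay within the same limits, or 0.876%. The order depends on the base. Of genes with at least 3 CPM in every day 11 library, the shares were 1.1% for CG-numbered genes and 0.997% for other symbols. With the days exchanged in the rule, 10 CG-numbered genes would have been taken.

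**Figure D1:**
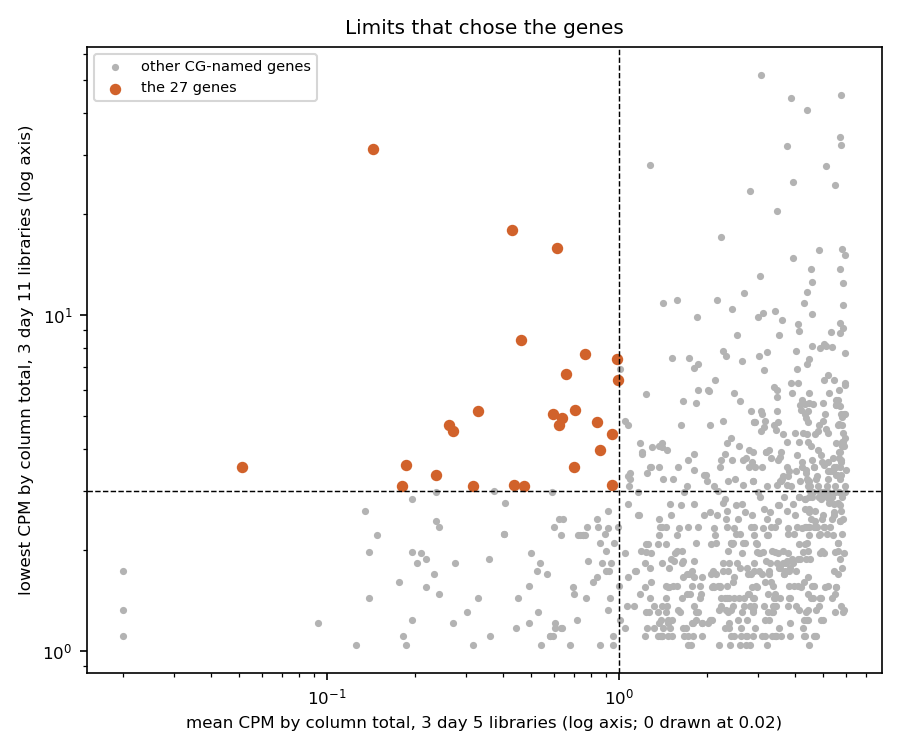
The lowest day 11 level is plotted against the mean day 5 level for CG-numbered genes near the limits, both in CPM by column total on log axes. The dashed lines mark 1 CPM and 3 CPM. CG15213 stands apart at the top, while many of the 27 genes lie close to the 3 CPM line.

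Values near the limits were continuous. CG31760 and CG17224 were just inside the day 5 limit, at means of 0.994 and 0.987 CPM by column total, and CG15522 and CG30285 just outside it, at 1.01 and 1.05 CPM. CG17018 and CG16886 were just inside the day 11 limit, each with a lowest value of 3.09 CPM, while CG9411 and CG15096 missed it at 2.999 and 2.98 CPM.

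The levels reached at day 11 were low for most of the 27 genes. Their day 11 means ran from 4.15 to 59.6 CPM with a median of 7.73 CPM, against a median of 25.8 CPM over the 6363 genes that had at least 3 CPM by column total in every day 11 library. In 24 of the 27 genes the mean was below 20 CPM. Summed over the 27 genes, the level was 14.8, 11.7 and 13.3 CPM in the day 5 libraries and 317.5, 253.0 and 290.2 CPM in the day 11 libraries. CG15213 alone made up 26.6%, 14.5% and 20.0% of the day 11 sums. The fitted log2 fold changes, day 11 over day 5, ran from 2.59 for CG8641 to 8.72 for CG15213 with a median of 4.09, against a median of -0.0065 over all genes tested.

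**Figure D2:**
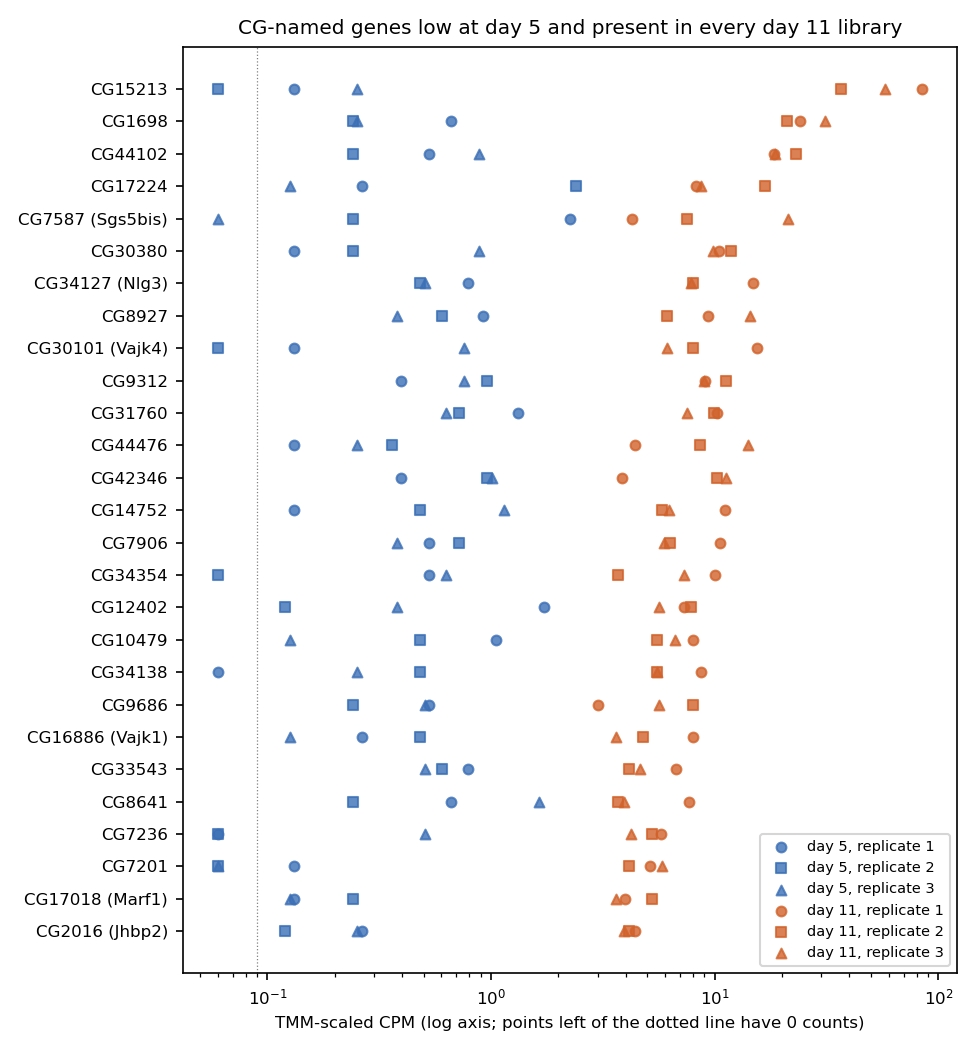
Each of the 27 genes is shown by its TMM-scaled CPM in the 3 day 5 libraries (blue) and 3 day 11 libraries (orange) on a log axis, ordered by day 11 mean. The replicates are told apart by symbol, and points left of the dotted line had 0 counts. The days do not overlap in any gene, as the rule requires, and the highest day 5 points of CG7587 (2.25 CPM) and CG8641 (1.64 CPM) come nearest to their lowest day 11 points (4.28 and 3.68 CPM).

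Of the 27 genes, 6 have since been named in the RefSeq annotation, and the label of uncharacterised genes does not hold for them. CG30101 and CG16886 are Vajk4 and Vajk1, of a small family of cuticular protein genes. CG7587 is Sgs5bis, a relative of Sgs5, which encodes a protein of the glue that larval salivary glands secrete to fix the puparium to its support. CG2016 is Jhbp2, of the family of juvenile hormone binding proteins, whose hormone holds back metamorphosis in insects. CG34127 is Nlg3, a neuroligin, one of the adhesion proteins that bind neurexins across the synapse. CG17018 is Marf1, an RNA-binding regulator of mRNA stability known from the germ line. A few others have a synonym that points to a family. CG1698 is also listed as DmNAT5, of the nutrient amino acid transporters, CG7236 as Cdk1l or KKIALRE, of the kinases related to cyclin-dependent kinases, and CG12402 as FBXL11, a name for F-box proteins with leucine-rich repeats, which choose substrates for ubiquitin ligases. The others are described by their gene models only.

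The cuticle family split. Vajk4, on chromosome arm 2R, stood at 0.132, 0 and 0.758 CPM in the day 5 libraries and at 15.5, 7.98 and 6.10 CPM in the day 11 libraries. Vajk1, on arm 2L from 13920707 to 13923553 (BDGP6, the assembly of dm6), stood at 0.264, 0.481 and 0.126 CPM at day 5 and at 8.02, 4.76 and 3.63 CPM at day 11. In both, day 11 replicate 1 was the highest library and replicate 3 the lowest. The fitted log2 fold change was 5.00 (SE 0.74) for Vajk4 and 4.16 (SE 0.60) for Vajk1. The value of Vajk4 was 6.97 without day 5 replicate 3, which held 6 of its 7 day 5 counts, and 4.40 without day 5 replicate 2, which held none.

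The other two Vajk genes, which the rule did not take, went the other way. Vajk2 (listed as CG16885) was at 1.45, 7.70 and 1.39 CPM at day 5 and at 0.321, 1.38 and 0.436 CPM at day 11. Vajk3 (listed as CG16884) was at 1.45, 7.94 and 2.91 CPM at day 5 and at 0.641, 0.307 and 0.581 CPM at day 11. Day 5 replicate 2 was by far the highest library for both genes. Vajk3 fell, with a fitted log2 value of -2.94 and an SE of 0.71 (adjusted p = 0.00624 in edgeR), and for Vajk2 the value was -2.35 with an SE of 0.85 (adjusted p = 0.0492 in edgeR). Of 14 alternative settings, 5 lost the call of Vajk2, where edgeR or voom gave an adjusted p as high as 0.360, and 2 lost that of Vajk3, with one as high as 0.0528. Leaving out day 5 replicate 2 ended both, with log2 values of -1.04 for Vajk2 and -2.05 for Vajk3. The value of Vajk2 was -3.19 without day 11 replicate 2. Vajk1, Vajk2 and Vajk3 lie near each other on arm 2L, where Vajk2 starts at 13932559 and Vajk3 at 13944756, with CG42711 between Vajk1 and Vajk2.

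Sgs5bis, the glue gene relative, was uneven in both groups. It stood at 2.25, 0.241 and 0 CPM in the day 5 libraries and at 4.28, 7.52 and 21.2 CPM in the day 11 libraries. Day 11 replicate 3 was the highest and held more than the other day 11 libraries together, and the lowest day 11 value lay within a factor of 2 of day 5 replicate 1. Its log2 fold change of 3.73 (SE 1.17) became 2.83 when day 11 replicate 3 was left out, and 6.29 when day 5 replicate 1 was. It was the 1 gene of the 27 that edgeR did not call, and it was called in 5 of 14 other settings.

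Sgs1, Sgs3, Sgs4, Sgs5, Sgs7 and Sgs8 had the same library on top at day 11, while replicate 2 was the highest for Sgsf and Sgsh. Sgsh was matched by the letters of its symbol only, and it is not taken as a glue gene here. Sgs5, 304 bases from Sgs5bis on the same strand of arm 3R, was at 0.396, 3.13 and 0.758 CPM at day 5 and at 17.1, 14.0 and 172.4 CPM at day 11. Sgs3 was at 33.0, 30.8 and 407.5 CPM and Sgs7 at 25.8, 37.1 and 382.9 CPM in the day 11 libraries. Neither Sgs3 (edgeR adjusted p = 0.0644) nor Sgs7 (edgeR adjusted p = 0.0586) nor Sgs5 (edgeR adjusted p = 0.0695) was called. Without day 11 replicate 3 all of Sgs3, Sgs5, Sgs7 and Sgs8 were called. Sgs1 had no counts at day 5 and 3.63, 2.15 and 15.7 CPM at day 11, and it was called higher (adjusted p = 0.019 in edgeR), a call lost in 1 of 14 alternatives. Sgs4 was at 0.529, 1.08 and 0.126 CPM at day 5 and at 6.41, 7.37 and 56.8 CPM at day 11, and it was called higher (adjusted p = 0.0484 in edgeR). Sgsh (listed as CG14291) was at 14.0, 12.3 and 15.7 CPM at day 5 and at 1.60, 7.52 and 4.94 CPM at day 11, and it was called lower (log2 value -1.61, adjusted p = 0.0172 in edgeR), a call lost in 3 of 15 alternatives. Summed over 8 salivary gland markers, the level was 5.69 to 19.6 CPM at day 5 and 105.5, 113.6 and 1224 CPM at day 11. The markers that are not glue genes did not follow this sum. For fkh the mean was 1.46 CPM at day 5 and 1.63 CPM at day 11, with 0.871 CPM in day 11 replicate 3. For ng1 it was 0.703 CPM at day 5 and 0.202 CPM at day 11. The part of salivary gland RNA in the level of Sgs5bis was not tested.

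**Figure D3:**
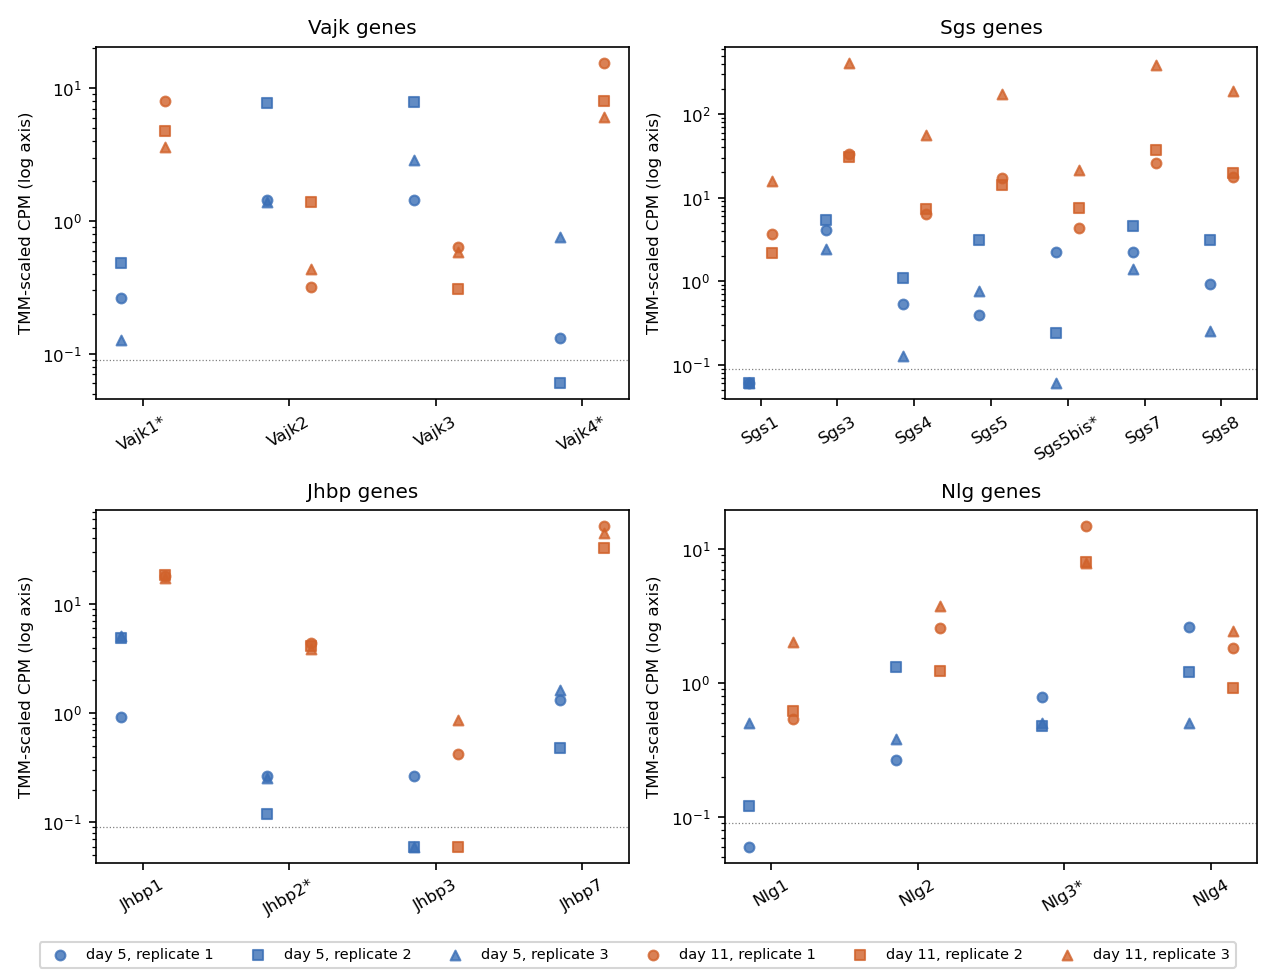
TMM-scaled CPM in each library (log axis) for Vajk, Sgs, Jhbp and Nlg genes named in the text, with an asterisk on the genes among the 27. Sgsf and Sgsh, which were highest in day 11 replicate 2, are not drawn. Points below the dotted line had 0 counts. Vajk2 and Vajk3 were lower at day 11 while Vajk1 and Vajk4 were higher, and day 11 replicate 3 was the highest library in every Sgs gene shown.

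Jhbp2 was among the lowest but most even of the 27 genes. Its day 5 libraries held 0.264, 0.120 and 0.253 CPM and its day 11 libraries 4.38, 4.14 and 3.92 CPM. The coefficient of variation (CV) over the day 11 libraries was 5.58%, the smallest of the 27. The fitted log2 fold change was 4.20 (SE 0.57). The table lists 14 genes now named Jhbp, of which 3 were abundant enough to test. One of these is Jhbp2 itself, which the rule chose, and both others were higher at day 11, against 19.1% of all genes tested. Neither of these others would have passed the filter on low counts by its day 5 values alone, so this share is partly set by the filter. Jhbp1 (listed as CG1124), the next gene 4093 bases away on arm 3R, rose from 3.64 ± 2.35 to 17.9 ± 0.498 CPM (SD, n = 3 per day), a log2 difference of 2.29 (adjusted p = 0.00417 in edgeR). Jhbp7 (listed as CG11852), far away on the same arm, rose from 1.15 ± 0.60 to 43.2 ± 9.48 CPM, a log2 difference of 5.23 (adjusted p = 1.06e-06 in edgeR). Jhbp3, on the other side of Jhbp2, was not tested and held at most 0.871 CPM in any library. These relatives were chosen by their names after the values of the 27 genes had been seen.

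Nlg3 was the member with a known synaptic role. It stood at 0.793, 0.481 and 0.505 CPM at day 5 and at 14.9, 7.98 and 7.84 CPM at day 11, with replicate 1 the highest. The fitted log2 fold change was 4.09 (SE 0.44), and 3.71 without day 11 replicate 1. Of the other neuroligin genes, Nlg2 was at 0.656 and 2.52 CPM on average (edgeR log2 fold change 1.90, SE 0.69, adjusted p = 0.0447), a call that 7 of 14 alternative settings did not make, with an adjusted p as high as 0.194, and its log2 value was 2.90 without day 5 replicate 2. Nlg4 was at 1.45 and 1.74 CPM on average and was not called (edgeR adjusted p = 0.767), and Nlg1 was too low to test. Beside this, 4 of 6 neuron markers rose, among them the synaptic vesicle gene Syt1 (edgeR log2 fold change 2.32, adjusted p = 5.60e-06) and the fusion gene Snap25 (3.35, adjusted p = 5.89e-06), while elav, which marks all neurons and was picked out after its values were seen, was at 176.3 and 175.0 CPM. Whether neuron numbers have a part in the level of Nlg3 was not tested.

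CG1698, the transporter gene, had the highest day 11 level after CG15213. Its day 5 libraries held 0.661, 0.241 and 0.253 CPM and its day 11 libraries 24.2, 21.0 and 31.1 CPM, with a CV of 20.2% at day 11. The fitted log2 fold change was 6.01 (SE 0.36). An exon of CG1698 overlaps one of CG1688 on the opposite strand, which held no counts at day 5 and 2.67, 0.614 and 2.03 CPM at day 11. Since no source used here states whether counting used the strand, reads of this pair cannot be told apart.

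Marf1, CG7236 and CG12402 were lower. Marf1 was at 0.132, 0.241 and 0.126 CPM at day 5 and at 3.95, 5.22 and 3.63 CPM at day 11 (log2 fold change 4.54, SE 0.60). CG7236 had no counts in day 5 replicates 1 and 2, 0.505 CPM in replicate 3, and 5.77, 5.22 and 4.21 CPM at day 11. Its log2 fold change was 4.79 (SE 0.80), and 8.30 without day 5 replicate 3, so the size of its difference rests on 4 counts. CG12402 was at 1.72, 0.120 and 0.379 CPM at day 5 and at 7.27, 7.83 and 5.66 CPM at day 11, with day 5 replicate 1 above the others. Its log2 fold change of 3.23 (SE 0.62) became 4.71 without that library.

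CG15213, whose model on arm 3L from 5132796 to 5133220 has 2 exons and encodes 62 residues, had both the highest day 11 level and the largest fold change. Its libraries held 1, 0 and 2 counts at day 5 and 789, 239 and 399 counts at day 11, or 84.3, 36.7 and 57.9 CPM. With 3 counts in all at day 5, the ratio of the summed and scaled counts was 497.3 with a counting interval of 169.8 to 2414 (exact, 95%). Its fitted log2 fold change of 8.72 (SE 0.58) was 9.56 without day 5 replicate 3. The day 11 libraries differed from each other by more than counting error, with a CV of 40.0% where counting alone would give about 4.59%. Replicate 1 was the highest, as in 14 of the 27 genes and in 53.8% of all genes called higher.

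The gene beside CG15213 moved with it. CG15212, 668 bases away on the opposite strand, stood at 7.27, 3.37 and 13.1 CPM at day 5 and at 156.2, 70.3 and 77.5 CPM at day 11. The days did not overlap, and replicate 1 was again the highest at day 11. CG15212 rose by 3.68 on the log2 scale with an SE of 0.60 (adjusted p = 0.00732 in edgeR) and was called in all 15 other settings. The gene on the other side, Yod1, listed as CG4603, was not called (adjusted p = 0.204).

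The median protein length was 356 residues over the 27 genes and 336 over CG-numbered protein-coding genes, but several of the 27 genes encode short proteins. Gene models of 7 of them encode fewer than 200 residues, which is 25.9%, against 22.3% of 13784 protein-coding genes placed and 13.4% of the 6125 that reached 3 CPM in every day 11 library. Besides CG15213 and Sgs5bis these are CG44476, with 77 residues, CG30380 with 101, CG14752 with 112, CG9686 with 162 and CG34138 with 195. CG44476, for which RefSeq also gives a lincRNA synonym, went from 0.132, 0.361 and 0.253 CPM to 4.38, 8.59 and 14.1 CPM, with replicate 3 the highest. CG30380 went from 0.132, 0.241 and 0.885 CPM to 10.5, 11.8 and 9.87 CPM, and its day 11 CV of 9.29% was below the 11.1% that counting alone would give. The log2 fold change of CG30380 was 4.62 (SE 0.49), and 5.71 without day 5 replicate 3.

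The other short-protein genes were spread over the libraries in different ways. CG14752 stood at 11.1, 5.83 and 6.24 CPM at day 11 and CG34138 at 8.66, 5.52 and 5.52 CPM, both with replicate 1 on top. CG9686 had the opposite order, with 2.99 CPM in replicate 1 and 7.98 and 5.66 CPM in the others. The day 5 means of these were 0.584, 0.245 and 0.425 CPM. The log2 fold changes were 3.69 for CG14752, 4.63 for CG34138 and 3.66 for CG9686, and those of the first pair were 4.56 without day 5 replicate 3 and 5.50 without day 5 replicate 2.

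At the other end were 5 genes that span more than 20000 bases, 18.5% of the 27 against 7.44% of protein-coding genes placed and 12% (735 of 6125) of those that reached 3 CPM in every day 11 library. Besides Nlg3 and Marf1 these are CG31760, CG42346 and CG34354. CG42346, on the X chromosome from 22832399 to 22885541, has the longest protein of the 27, with 1817 residues. It was at 0.396, 0.962 and 1.01 CPM at day 5 and at 3.85, 10.3 and 11.2 CPM at day 11, where replicate 1 held less than the others. CG31760 was at 1.32, 0.722 and 0.632 CPM at day 5 and at 10.3, 9.97 and 7.55 CPM at day 11. CG34354 was at 0.529, 0 and 0.632 CPM at day 5 and at 10.1, 3.68 and 7.26 CPM at day 11. The log2 fold changes were 3.37 (SE 0.52) for CG42346, 3.36 (SE 0.39) for CG31760 and 4.16 (SE 0.69) for CG34354, the last being 3.55 without day 5 replicate 2.

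Of the genes with models of intermediate size, CG44102 and CG17224 had the highest day 11 levels after CG1698. CG44102, on arm 2R, was at 0.529, 0.241 and 0.885 CPM at day 5 and at 18.5, 23.2 and 18.6 CPM at day 11 (log2 fold change 5.16, SE 0.36). CG17224, on arm 2L from 3016441 to 3018308, was at 0.264, 2.41 and 0.126 CPM at day 5 and at 8.23, 16.7 and 8.71 CPM at day 11. Replicate 2 was the highest library of CG17224 on both days, and 20 of its 23 day 5 counts came from it. Its log2 fold change of 3.53 (SE 0.80) was 5.72 without that library.

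CG8927 and CG9312 reached about 10 CPM. CG8927 was at 0.925, 0.601 and 0.379 CPM at day 5 and at 9.30, 6.14 and 14.4 CPM at day 11 (log2 fold change 3.94, SE 0.47). One of its exons overlaps Bin1 on the opposite strand, which was at 18.6 ± 3.97 CPM at day 5 and 9.64 ± 0.487 CPM at day 11 (SD, n = 3 per day) and fell (log2 value -0.95, adjusted p = 0.00483 in edgeR). CG9312, on arm 3R from 13765756 to 13767103, was at 0.396, 0.962 and 0.758 CPM at day 5 and at 9.08, 11.2 and 9.0 CPM at day 11, a CV of 12.8% (log2 fold change 3.75, SE 0.39).

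The remaining genes had day 11 means between 5.03 and 7.61 CPM. CG7906, CG10479 and CG33543 had day 5 means of 0.543, 0.555 and 0.633 CPM. CG7906 was at 10.6, 6.29 and 5.95 CPM at day 11, CG10479 at 8.02, 5.52 and 6.68 CPM, and CG33543 at 6.73, 4.14 and 4.65 CPM. CG8641 stood at 7.70, 3.68 and 3.92 CPM, and its day 5 replicate 3 held 1.64 CPM, which left the smallest fold change of the 27 (log2 fold change 2.59, SE 0.60, and 3.49 without that library). CG7201 had 1 count in all at day 5, in replicate 1, and 48, 27 and 40 counts at day 11. The ratio of its summed and scaled counts was 120.2, with a counting interval of 21.2 to 4789, and its fitted log2 fold change of 6.44 (SE 0.81) was 8.30 without day 5 replicate 1. Replicate 1 was highest in each of these but CG7201, where replicate 3 was. The log2 fold changes of CG7906, CG10479 and CG33543 were 3.77, 3.58 and 3.01, and that of CG10479 was 4.38 without day 5 replicate 1.

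The day 11 libraries spread more for these genes than for genes at large. The median CV over the day 11 libraries was 33.9% for the 27 genes, 17.0% for all genes called higher and 15.6% for genes with at least 3 CPM in every day 11 library. Counting alone would give a median CV of 12.9% for the 27 genes. In 15 of them the CV was more than 2 times the counting value, and in Jhbp2, CG30380 and CG7236 it was below it. The order of the libraries was not shared. Replicate 1 was the highest in 14 genes (51.9%), replicate 2 in 7 (25.9%) and replicate 3 in 6 (22.2%). Over genes with at least 3 CPM in every day 11 library these shares were 42.8%, 33.6% and 23.6%.

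No 2 of the 27 genes were within 20 kb of each other, and the closest pair, CG9312 and CG12402 on arm 3R, were 337384 bases apart. The cluster that was left out held 2 more genes within both limits of the rule, so leaving it out bears on this result. The distances were not set against those over all genes, and nothing is read from them. The 27 genes fell on arms 3R (8 genes), 2L (7), 2R (5) and 3L (5) and on X (2).

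Genes next to them were also compared between the days. The nearest tested gene on each side gave 54 flanking genes outside the 27, of which 20 rose and 6 fell, or 37.0% and 11.1%, against 19.1% and 17.9% of all genes tested. The median log2 fold change of the flanking genes was 0.61. Of the 21 flanking genes within 5 kb, 8 rose and 1 fell. Leaving out single libraries gave 15 to 23 flanking genes called higher. Whether neighbouring genes differ from other genes beyond chance was not tested.

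Among flanking genes called higher, Cht5 the gene of a chitinase that degrades old cuticle at moults, had the largest fold change. It lies 445 bases from CG9312, on the same strand, and was at 0.793, 0.241 and 0.632 CPM at day 5 and at 30.2, 22.9 and 25.4 CPM at day 11. Cht5 rose by 5.54 on the log2 scale with an SE of 0.33 (adjusted p = 6.34e-07 in edgeR), and like CG9312 it was even across the day 11 libraries. Their exons do not overlap.

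Similar neighbours stood beside CG7906 and CG34138. CG34244, 693 bases from CG7906 on the opposite strand, was at 10.2 ± 3.64 CPM at day 5 and 82.0 ± 29.1 CPM at day 11 (SD, n = 3 per day; log2 value 3.00, adjusted p = 0.00033 in edgeR), and both genes were highest in day 11 replicate 1. CG6231, 2230 bases from CG34138, went from 1.45 ± 0.737 to 13.8 ± 2.73 CPM (log2 fold change 3.22, adjusted p = 5.29e-05). CG34138 itself overlaps an exon of subdued on the opposite strand, a chloride channel gene that fell from 5.31 ± 0.768 to 1.72 ± 0.770 CPM (edgeR log2 fold change -1.65, adjusted p = 0.0108). Farther off, Arr1, a visual arrestin gene 31522 bases from CG44476, rose from 0.164 ± 0.183 to 4.38 ± 0.483 CPM (edgeR log2 fold change 4.58, adjusted p = 0.000372), and the log2 value was 5.75 without day 5 replicate 2. Cht5 and Arr1 were the 2 flanking genes that themselves met both limits of the rule.

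**Figure D4:**
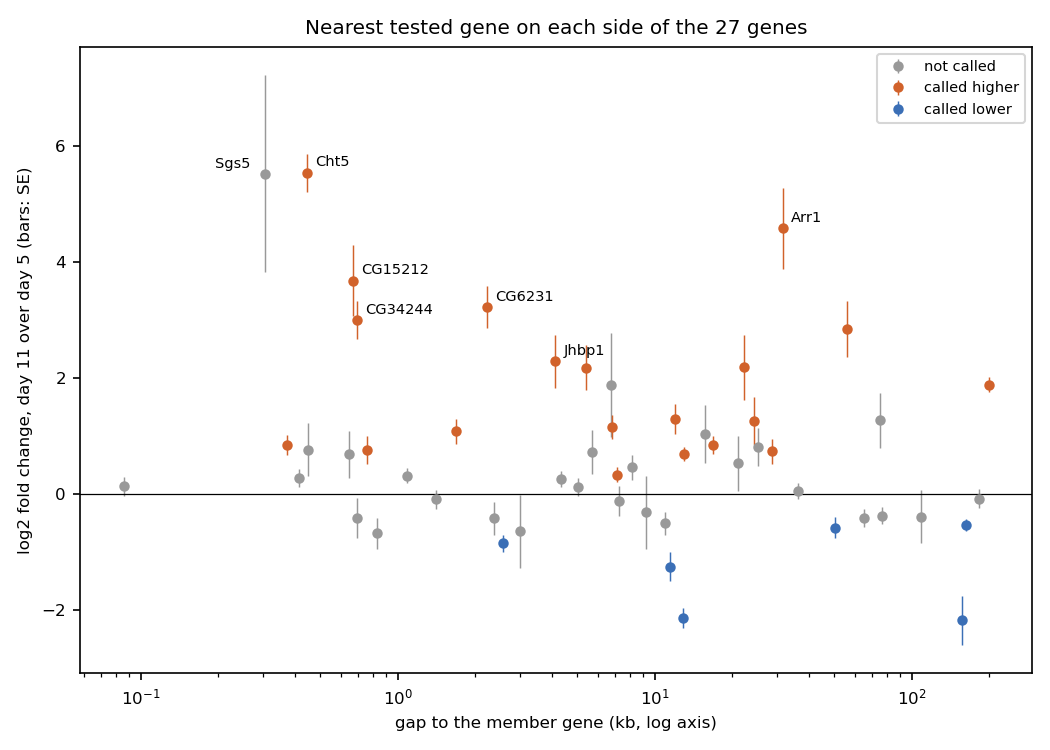
Fitted log2 fold change, day 11 over day 5, with its SE, of the nearest tested gene on each side of the 27 genes against the gap between the genes (log axis). Genes called higher are orange, genes called lower blue and others grey. Sgs5, Cht5, CG15212, CG34244 and CG6231 stand highest among neighbours within 5 kb, and Sgs5 was not called.

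Overlaps with other genes touch 10 of the 27 genes, and in 5 of them exons overlap, each time on opposite strands. Besides CG1698, CG8927 and CG34138 these are CG33543 and CG34354, whose overlapping partners are antisense RNAs. That of CG33543 (CR43464) was at 0.471 and 1.27 CPM on average, and that of CG34354 (CR45041) had no counts. CG42346 spans fog, a gene of epithelial folding on the opposite strand that rose (edgeR log2 fold change 1.26, adjusted p = 0.000124), but no exons overlap.

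Lists of named genes of cell types and programmes that a late disc or its dissection could hold were also counted, against 19.1% higher and 17.9% lower over all genes tested. Genes near 0 at day 5 entered the test only through day 11, as Pph13, Arr1, ninaC, Gbeta76C and the midgut gene alphaTry did, so these shares and medians are partly set by the filter. Terminal photoreceptor genes rose in 9 of 11 tested of 22, with a median log2 fold change of 2.81, while ninaE, Rh3 and ninaA had no counts. Of the others not tested, trp, trpl and inaD stayed below 1 CPM in every library. The highest value was 2.61 CPM, for Rh6 in day 11 replicate 2. Lens, cone and pigment cell genes rose in 5 of 5 tested of 11 listed (2.89). Of those not tested, Cpr72Ec, w, cn and v stayed below 1 CPM in every library, and retinin reached at most 2.30 CPM. Since all larvae were y w, nothing is read from the level of w. No gene was found under the symbol Crys. A gene listed as Cry met both limits of the rule, at 0.0401 CPM on average at day 5 and 9.57 CPM at day 11. It was called higher (log2 value 7.37, adjusted p = 7.68e-06 in edgeR). Whether Cry is an older symbol of Crys was not checked, and it is not in the counts given here. Epidermal and cuticle genes rose in 4 of 6 (2.35) and ecdysone response genes in 4 of 9 with 1 lower (0.84). Of the tracheal markers 3 of 4 rose (0.69), but the tracheal genes btl and trh were near the floor. Among markers of tissue that a dissection can carry over, 2 of 6 haemocyte, 2 of 5 glial and 2 of 7 salivary gland genes rose. The 1 midgut gene tested of 6 listed and the 1 testis gene tested of 8 listed also rose. Of the fat body genes none of 6 was called, 1 of 9 muscle genes fell, and 1 of 3 sensory cilium genes fell. Some of these calls were not stable, since that of NimC1 (haemocyte) was lost in 5 of 14 alternatives, eater (haemocyte) in 3 of 15, Mhc (muscle) in 4 of 15 and Sgs4 (salivary gland) in 7 of 15.

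Several of these lists were uneven between libraries. The summed level of the fat body list was 75.4 to 779.4 CPM at day 5 and 86.4, 1067 and 128.8 CPM at day 11, and that of the haemocyte list 78.2 to 96.7 CPM and 101.0, 246.0 and 158.5 CPM. Replicate 2, the highest day 11 library of both lists, was also the highest for 7 of the 27 genes (25.9%), CG17224 among them. It was the highest for 33.6% of genes with at least 3 CPM in every day 11 library, so nothing is read from this count. The summed midgut and testis levels were at most 6.75 and 17.3 CPM in any library. The part of these tissues in the levels of the 27 genes was not tested.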

How the data were processed

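The authors deposited raw counts of reads for each gene, 1 column for each library, and no column was left unmapped. Per the submitters' processing notes, the tools were FastQC, cutadapt and STAR 2.6.1d and the build was dm6. The sources used here do not say which annotation or counting program was used, whether strand was taken into account, or what was done with reads that match several places, so near-identical copies are uncertain.

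From these counts, edgeR 4.0.16 (R 4.3.3) compared day 11 with day 5 by its robust quasi-likelihood test, two-sided, after filterByExpr and TMM. The Benjamini-Hochberg adjustment covered all 8010 genes tested. The fit was tested on simulated data. The labels do not call libraries of a day separate cultures. The p-values thus measure only the spread between samples, possibly technical. An exact permutation test of 3 against 3 cannot give p below 0.1. Libraries of a day differed by more than sampling noise (chi-square per degree of freedom of at least 8.45).

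Gene models came from the Ensembl annotation of BDGP6, which has dm6 coordinates (1-based). Symbols were matched directly or through a RefSeq synonym, and 16508 of 16727 genes were placed. Protein length is that of the longest coding model. All 27 genes are named, with flanking genes by position, relatives by symbol, and list genes by their adjusted p. The 27 genes and all lists were chosen with earlier results of these data known. Alternatives were other scalings (with DESeq2 1.42.0 size factors), filters and tests (DESeq2, limma-voom), a replicate block, each library left out, and other limits in the rule.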

Additional observations from a re-analysis of the deposited data

How the results depend on the processing

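Which genes meet the rule depends on its limits and on the scaling. There were 27 genes as given, 36 with TMM-scaled CPM (26 shared with the 27) and 48 with column totals that leave out CR40469 and CR34335 (22 shared). A day 5 limit of 0.5 CPM left 13 genes and one of 2 CPM gave 68. A day 11 limit of 2 CPM gave 56 genes and one of 5 CPM left 11. Without 1 library the rule gave 28 to 40 genes.

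With total-count scaling the median log2 value over all genes moved by -0.27, and there were 864 genes higher and 2207 lower. Requiring 5 CPM in 3 libraries left 11 of the 27 genes to test, all 11 called. Leaving out single libraries gave 1187 to 1568 genes higher, 1015 to 1440 lower, 26 or 27 of the 27 genes called and 15 to 23 flanking genes higher. With a replicate block, 26 of the 27 genes were called, 1518 genes were higher and 1422 lower, and 20 flanking genes were higher. Deviations of same-numbered libraries from their day means had correlations of 0.0497, 0.194 and -0.0858, and those of other pairs ran from -0.230 to 0.166. The labels do not state a pairing, and these few values cannot decide whether the numbers pair libraries. No pair of the 27 genes lay within 5, 10 or 20 kb. The fold change of none of the 27 genes changed sign, and 384 of 389 recomputed values kept their side of the threshold, the 5 others being calls gained by CG7587. The rule chose the 27 genes by the same contrast. Their signs and calls, here and above, were thus largely fixed in advance, and nothing is read from them. In 13 of the 27 genes the fold moved by over 1.5 times without 1 library, each time most with a day 5 library, where single counts decide. Nlg4, near 0, changed sign with total-count scaling (-0.0064), without day 5 replicate 3 (-0.14) and without day 11 replicate 3 (-0.043), and without day 5 replicate 1 it reached 1.00. Planned comparisons of N-terminal hydrophobicity, of protein matches and of promoter motifs were not run, since no protein or promoter sequence was used here.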

Other observations

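The 39 genes with another kind of symbol that met the same limits, which the rule again chose by the difference between the days, hold several known from the late eye and epidermis. The cuticle protein gene Cpr100A was at 0.786 ± 0.453 and 265.1 ± 129.6 CPM (SD, n = 3 each day), far above CG15213. Genes of light detection among them were the homeobox gene Pph13 (23.3 ± 2.94 CPM at day 11), the G protein subunit gene Gbeta76C (14.2 ± 1.24 CPM), the myosin gene ninaC (5.14 ± 0.484 CPM) and the arrestin gene Arr1 (4.38 ± 0.483 CPM). Receptor genes for amines and peptides were also present, with Octbeta3R at 7.60 ± 4.04 CPM, SPR at 6.89 ± 1.78 CPM, Oamb at 6.35 ± 2.88 CPM and sNPF-R at 3.85 ± 0.673 CPM at day 11.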
